A study of Mus musculus with 2 samples.

Results

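The genes of the Wnt signalling pathway were compared between the ventricular and subventricular zones (VZ–SVZ) of a control and an Rcor2-deleted mouse cortex at E13.5 (embryonic day). Members were taken by gene symbol: every Wnt, Fzd, Sfrp, Dkk, Rspo, Axin and Dvl gene, the Tcf/Lef factors, Lrp5, Lrp6, Ctnnb1, Apc, Lgr4 to Lgr6, Znrf3, Rnf43 and Notum. This gave 60 genes of the 21896 genes in the deposited values. The 1 Rcor2fl/fl library is the control and carries the floxed alleles of Rcor2, a co-repressor partner of the histone demethylase LSD1, without their deletion. The 1 Rcor2cko library carries the same floxed alleles and NesCre, a Cre recombinase driven by Nestin regulatory sequence, which acts in the neural lineage. Both genotypes are of the C57/BL6 strain and came from crosses of Rcor2fl/+NesCre mice, and how many embryos went into a library is not given in the sources used here. E15.5 was not analysed here.

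Wnt proteins are secreted lipid-modified ligands that bind Frizzled receptors together with the co-receptors Lrp5 and Lrp6. The signal passes through Dishevelled, holds back the destruction complex of Axin and Apc and lets β-catenin (Ctnnb1) enter the nucleus, where it works with the Tcf/Lef factors. R-spondins raise the sensitivity to Wnt through Lgr receptors and the E3 ligases Znrf3 and Rnf43, whereas Sfrp, Dkk and Notum proteins hold the ligands or receptors back. In the embryonic cortex, Wnt signals keep progenitors dividing and pattern the medial side, where the cortical hem is a known source of Wnt ligands.

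Among genes with at least 1 FPKM, the receptors, Dishevelled genes and destruction complex lay within 1.5-fold in the 2 libraries. Fzd9 and Axin2 were at the lower edge of this range. Tcf7l2, Rspo1, Rspo3 and the ligand Wnt8b fell below it. The ligands Wnt5a and Wnt5b had their higher value in the Rcor2fl/fl library but stayed within the range. The main ligand, Wnt7b, was higher in the Rcor2cko library by less than 1.5-fold. Levels are FPKM, the fragments per transcript length scaled to the mapped fragments of the library. Changes are given on the log2 scale as the Rcor2cko over the Rcor2fl/fl value after adding 0.1 FPKM to each, and this pseudocount understates the change of low genes. Of the 60 genes, 31 reached 1 FPKM in at least 1 library, and 28 of them reached it in both. Among the 31 genes, 0 were higher in the Rcor2cko library by more than 1.5-fold, against 3.79% of the 11777 genes of all kinds that passed the same filter. A further 4 genes (Wnt8b, Rspo1, Rspo3 and Tcf7l2) were more than 1.5-fold lower, against 1.76% of all genes. The deposited intervals of Tcf7l2 overlapped, and its direction turned when its highest transcript was taken in place of the sum. Wnt8b and Rspo1 passed the filter only through the Rcor2fl/fl library, so their Rcor2cko value had to be the lower one, and Wnt5b was the other gene of this kind. The remaining 27 genes lay within 1.5-fold. The 31 genes had a median log2 change of −0.12, with 10 above 0 and 21 below 0, and the median of all 11777 genes was −0.03. Wnt8b, Rspo1 and Wnt5b are among the 21. The share below 0 was not taken over all genes, so the 21 are not read as a lean of the pathway. Each genotype has 1 library, so no difference has a replicate check or a p-value, and every value compares these 2 libraries.

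The other 29 genes were under 1 FPKM in both libraries. Of these, 4 (Fzd5, Wnt3, Sfrp4 and Fzd4) were more than 1.5-fold higher, against 8.31% of all genes under 1 FPKM, and 6 (Wnt10a, Rnf43, Wnt3a, Fzd10, Wnt2b and Rspo2) were more than 1.5-fold lower, against 4.60%. Wnt1, Wnt6, Wnt8a, Wnt10b, Rspo4 and Dkk4 were listed at 0 in both.

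**Figure D1:**
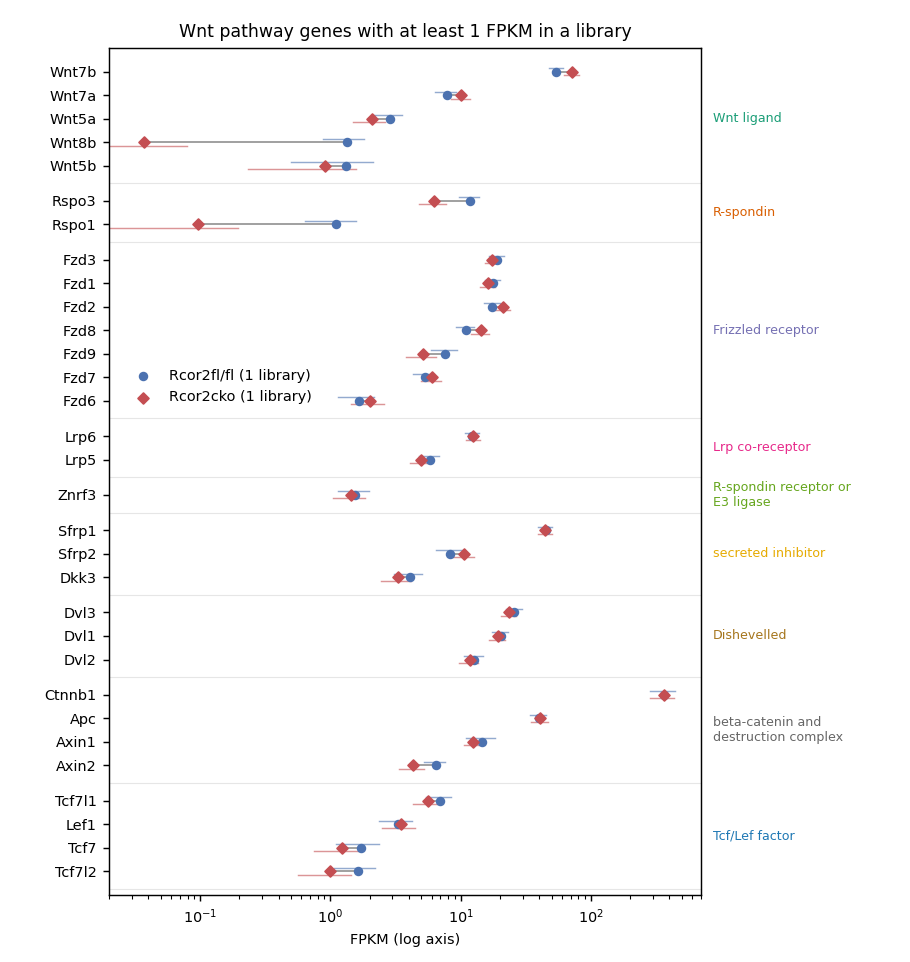
FPKM (log axis) of the 31 genes that reached 1 FPKM in at least 1 library, grouped by role; circles are the Rcor2fl/fl library, diamonds the Rcor2cko library, and horizontal lines the deposited 95% FPKM intervals, which run off the axis on the left where they reach towards 0. For genes with several transcripts, the Rcor2fl/fl line combines the deposited intervals of the transcripts. The 2 libraries lie close together for most genes, and Wnt8b (1.35 and 0.0371 FPKM) and Rspo1 (1.10 and 0.0961 FPKM) are the widest apart.

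The depth of the libraries could be read from the steps of the low FPKM values, which correspond to totals of 18839900 fragments in the Rcor2fl/fl and 25482687 in the Rcor2cko library. Where a gene has a single transcript of 1000 nt or more, whole fragments and a Clopper-Pearson interval (exact, 95%) around the log2 ratio of fragments per total were computed, and these intervals cover counting error only, since PCR copies were not separated from molecules. The targeted gene, Rcor2, had 90.6 FPKM in the Rcor2fl/fl and 55.7 FPKM in the Rcor2cko library, giving a log2 change of −0.70; FPKM is over the whole transcript and does not show the deleted exons on their own. The libraries also differed in sex-linked transcripts, with the inactive X transcript Xist at 177 and 0.109 FPKM and the Y-linked Eif2s3y at 0 and 19.8 FPKM, and none of the 59 pathway genes found in the annotation lies on X or Y. Progenitor markers of the cortex (8 of 8 found, Pax6 and Nes among them) summed to 523 and 442 FPKM.

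Promoters are shown for the genes past 1.5-fold that have an entry (Wnt8b, Rspo1 and Tcf7l2), for Axin2, a feedback target of the pathway, and for Lef1, whose window holds the letters searched most often. Wnt8b, Rspo1, Axin2 and Lef1 were chosen after their values were seen. Each line gives the 250 bases before the annotated start, from the RefSeq table on GRCm38.p6, 5′ to 3′ on the strand of the gene, with CTTTGA and CTTTGT and their reverse complements in capitals; these are the core letters that Tcf/Lef factors are known to recognise. The windows are chr19:44493222-44493471 for Wnt8b, chr4:124986180-124986429 for Rspo1, chr19:55895071-55895320 for Tcf7l2, chr11:108920099-108920348 for Axin2 and chr3:131156044-131156293 for Lef1, all on the plus strand. For Tcf7l2 and Lef1, which have 2 and 4 entries, the entry with the most matches is shown.
Wnt8b: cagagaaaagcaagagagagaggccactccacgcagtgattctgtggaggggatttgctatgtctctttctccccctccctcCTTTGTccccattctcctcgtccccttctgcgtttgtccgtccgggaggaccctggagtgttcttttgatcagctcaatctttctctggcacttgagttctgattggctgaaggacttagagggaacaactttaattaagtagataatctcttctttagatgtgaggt
Rspo1: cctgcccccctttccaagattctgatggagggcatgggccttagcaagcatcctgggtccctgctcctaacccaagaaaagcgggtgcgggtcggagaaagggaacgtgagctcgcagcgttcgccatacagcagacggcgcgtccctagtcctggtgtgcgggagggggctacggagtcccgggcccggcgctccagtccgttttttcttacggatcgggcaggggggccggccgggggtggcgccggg
Tcf7l2: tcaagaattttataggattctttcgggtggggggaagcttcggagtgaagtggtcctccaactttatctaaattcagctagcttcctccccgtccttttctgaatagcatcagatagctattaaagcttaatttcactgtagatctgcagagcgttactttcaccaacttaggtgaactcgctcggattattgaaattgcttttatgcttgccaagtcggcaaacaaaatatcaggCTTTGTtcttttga
Axin2: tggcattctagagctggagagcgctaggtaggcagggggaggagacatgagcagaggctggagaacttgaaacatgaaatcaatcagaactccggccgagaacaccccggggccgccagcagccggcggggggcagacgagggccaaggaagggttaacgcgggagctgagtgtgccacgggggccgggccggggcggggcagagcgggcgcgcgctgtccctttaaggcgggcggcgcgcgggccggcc
Lef1: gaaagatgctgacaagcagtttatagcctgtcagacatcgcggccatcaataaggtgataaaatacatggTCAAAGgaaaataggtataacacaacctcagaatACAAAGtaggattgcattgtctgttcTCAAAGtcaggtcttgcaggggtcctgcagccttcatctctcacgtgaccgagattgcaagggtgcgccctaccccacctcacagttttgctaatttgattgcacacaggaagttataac
The Wnt8b window held 1 match, starting at −168 from the gene's start, and the Tcf7l2 window 1 match, at −14. The Lef1 window held 3 matches, at −180, −146 and −120, and those of Rspo1 and Axin2 held 0, which says only that these letters are not in these 250 bases. The Rspo1 and Axin2 windows were GC-rich (66.8% and 69.2% G or C), and those of Lef1 and Tcf7l2 were not (44.8% and 40.8%). Of the 60 genes, 39 matched an entry, with 49 promoters in all. CTTTGA on either strand occurred in 5 of these 49 (10.2%) and in 13.8% of all 32851 promoters, and CTTTGT in 8 of 49 (16.3%) and in 16.5% of all promoters. The 2 strings differ in their last letter and cannot occupy the same bases on the same strand.

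The Wnt ligands were 19 genes, 5 of them with at least 1 FPKM. Wnt7b, a ligand of cortical progenitors and neurons, had the highest level, with 54.3 FPKM in the Rcor2fl/fl and 71.9 FPKM in the Rcor2cko library, giving a log2 change of 0.40. Its transcripts cannot be separated into fragments, but the 95% intervals from the deposited bounds (47.6 to 61.03 and 62.4 to 81.5 FPKM) did not overlap. The Rcor2fl/fl interval was combined from those of its 3 transcripts as if they were independent, so it is approximate. The same holds for the other genes with several transcripts. Wnt7a, which is made in the same zone and can act through the same receptors, had 7.81 and 10.1 FPKM, giving a log2 change of 0.37 (439 and 768 fragments; interval 0.20 to 0.54). Both genes were thus higher in the Rcor2cko library by a similar step that stayed within 1.5-fold. Together they made up 89.1% of the summed ligand FPKM in the Rcor2fl/fl and 95.1% in the Rcor2cko library.

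The other 17 ligands summed to 7.63 FPKM in the Rcor2fl/fl and 4.20 FPKM in the Rcor2cko library. Wnt5a, which mostly signals without β-catenin, had 2.86 and 2.07 FPKM, giving a log2 change of −0.45 (220 and 215 fragments; interval −0.75 to −0.19). Its relative Wnt5b had 1.32 and 0.904 FPKM, giving a log2 change of −0.50, with an interval that included 0 (−1.13 to 0.035). Wnt8b, a ligand of the medial pallium and hem, lies on the plus strand at chr19:44567962-44588763 on mm9. It was listed at 1.35 FPKM in the Rcor2fl/fl and 0.0371 FPKM in the Rcor2cko library, which correspond to 81 and 3 fragments. Its log2 change was −3.40, the lowest of the 31 genes, and its log2 ratio of fragments was −5.19 (interval −7.50 to −3.59). In tissue of mixed cells such a difference does not separate fewer cells that make the transcript from less RNA per cell, and these cannot be told apart here for any of the genes.

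Other ligands known from the hem were low in both libraries. Wnt2b had 0.911 and 0.547 FPKM (58 and 47 fragments), giving a log2 change of −0.64 with a fragment interval of −1.33 to −0.16. Wnt3a, on the minus strand at chr11:59061535-59104254 on mm9, had 0.311 FPKM from 15 fragments in the Rcor2fl/fl library and was listed at 0 in the Rcor2cko library. The upper bound of its log2 ratio of fragments was −2.28. Wnt2b, Wnt3a, Wnt5a and Wnt8b thus had their higher value in the Rcor2fl/fl library, with counting intervals below 0. This group was not fixed with the gene lists, and Wnt8b passed the filter only through that library. Of all genes with at least 1 FPKM and recovered fragments, 24.0% had an interval below 0. No such share was taken for genes under 1 FPKM, such as Wnt2b and Wnt3a. Wnt10a had 5 fragments in the Rcor2fl/fl and 0 in the Rcor2cko library, with an upper bound of −0.31 for the log2 ratio. Wnt3 went the other way, with 0.145 and 0.269 FPKM from 8 and 20 fragments, and its interval included 0 (−0.36 to 2.28). Wnt9a, with 0.238 and 0.151 FPKM, and Wnt4, with 0.234 and 0.174 FPKM, were also seen in both libraries. Wnt2, Wnt11, Wnt16 and Wnt9b had at most 2 fragments in either library, too few for a difference to be detectable at this depth.

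Markers of the medial wall and of cells that come from it differed in both directions. All 7 hem markers fixed with the gene lists were under 1 FPKM in both libraries, and they summed to 1.75 and 1.18 FPKM. Gdf7 and Msx1 were at 0 in the Rcor2fl/fl library only, and Lmx1a, a factor of the hem, had 0.371 and 0.188 FPKM. Every hem marker had a fragment interval that included 0, for Lmx1a −2.04 to 0.024. Of the 8 Cajal-Retzius markers, early-born neurons that come in part from the hem, 6 passed the filter. All 6 were more than 1.5-fold lower, against 1.76% of all genes that passed it. Lhx5 passed only through the Rcor2fl/fl library, so its Rcor2cko value had to be the lower one. The list summed to 59.8 and 28.0 FPKM (Reln 36.5 and 15.6 FPKM, Calb2 4.25 and 1.37 FPKM). None of the 8 was at 0. Markers of the choroid plexus, which also forms at the medial wall, were higher, at 2.53 and 65.4 FPKM for 11 genes, of which Ttr had 0 and 57.8 FPKM, and Kl, Slc4a5 and Cldn2 were the other markers at 0 in the Rcor2fl/fl library. The part of these cells in the ligand values was not tested.

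The R-spondins were the group of pathway genes with the largest difference. Their summed level was 13.9 FPKM in the Rcor2fl/fl and 6.67 FPKM in the Rcor2cko library, a log2 ratio of −1.05, where the sums of the other 8 groups differed by −0.25 to 0.31 on the same scale. Rspo3, on the minus strand at chr10:29172915-29255673 on mm9, carried 84.9% and 93.9% of the sum. It had 11.8 and 6.26 FPKM from 489 and 350 fragments, giving a log2 change of −0.90 and a fragment interval of −1.12 to −0.72. Rspo3 was the only one of the 4 genes past 1.5-fold that also had at least 5 FPKM.

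Rspo1, on the plus strand at chr4:124663674-124686343 on mm9, had 1.10 FPKM from 34 fragments in the Rcor2fl/fl and 0.0961 FPKM from 4 fragments in the Rcor2cko library. Its log2 change was −2.61, and the log2 ratio of fragments was −3.52 (interval −5.48 to −2.04). Rspo2, on the minus strand at chr15:42852357-43002364 on mm9, stood just under the filter with 0.995 and 0.313 FPKM from 59 and 25 fragments. The log2 change of Rspo2 was −1.41 (fragment interval −2.41 to −0.98). The 3 R-spondins that were seen at all had lower values in the Rcor2cko library, each with a counting interval below 0, while Rspo4 was at 0 in both. Rspo1 passed the filter only through the Rcor2fl/fl library, so its Rcor2cko value had to be the lower one. Of all genes with at least 1 FPKM and recovered fragments, 24.0% had an interval below 0. No such share was taken for genes under 1 FPKM, such as Rspo2. The Cajal-Retzius sum given above was also lower in the Rcor2cko library. The hem sum was lower as well, at 1.75 and 1.18 FPKM. The fragment interval of every single hem marker included 0, and no interval was computed for the sum. The part of these cells in the R-spondin values was not tested.

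The receptors of R-spondins were low in both libraries and carried no change past 1.5-fold among genes with at least 1 FPKM. Znrf3, an E3 ligase that takes Frizzled off the cell surface, had 1.55 and 1.44 FPKM, giving a log2 change of −0.10 (179 and 224 fragments; interval −0.40 to 0.18). Its relative Rnf43, itself a Wnt target, had 0.206 and 0.0668 FPKM from 16 and 7 fragments, giving a log2 change of −0.88 with an interval of −3.15 to −0.27. Of the receptors themselves, Lgr4 had 0.425 and 0.412 FPKM and Lgr5 0.118 and 0.0609 FPKM, and both intervals included 0. Lgr6 had 2 and 1 fragments. Lgr4 was thus the most abundant of the 3 Lgr receptors in this tissue, at a level that differed little between the libraries.

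The 10 Frizzled receptors summed to 81.1 FPKM in the Rcor2fl/fl and 83.6 FPKM in the Rcor2cko library, and none of the 7 with at least 1 FPKM differed by more than 1.5-fold. Fzd1, Fzd2, Fzd3 and Fzd8 made up 80.6% and 82.7% of the sum. Fzd3, best known for its role in axon growth and planar polarity, had 19.0 and 17.6 FPKM, giving a log2 change of −0.11 (interval −0.17 to −0.058). Fzd1 had 17.9 and 16.2 FPKM, giving a log2 change of −0.14 (interval −0.25 to −0.041). These 2 receptors, measured on over 1000 fragments in each library, were slightly lower in the Rcor2cko library. Fzd2 had 17.5 and 21.0 FPKM, giving a log2 change of 0.26 (interval 0.15 to 0.37). Fzd8, a receptor of the forebrain progenitors, had 11.0 and 14.3 FPKM, giving a log2 change of 0.38 (interval 0.24 to 0.52). Fzd7 followed with 5.30 and 6.03 FPKM and a log2 change of 0.18 (interval 0.012 to 0.36). Fzd2, Fzd7 and Fzd8 were thus all slightly higher in the Rcor2cko library, in the direction of Wnt7a and Wnt7b.

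Fzd9 was the abundant Frizzled furthest below 0. It had 7.65 and 5.16 FPKM from 276 and 251 fragments, giving a log2 change of −0.56 that lay just inside 1.5-fold (interval −0.83 to −0.32). Fzd6, with 1.65 and 2.01 FPKM, had a log2 change of 0.27 and deposited intervals that overlapped. The other 3 receptors were under 1 FPKM. Fzd4, which is strong in blood vessels, had 0.578 and 0.957 FPKM from 38 and 85 fragments, giving a log2 change of 0.64 (interval 0.16 to 1.32). All 7 endothelial markers passed the filter, with 6 above 0 and 1 below 0, and none was at 0. More than 1.5-fold higher or lower were 0 of them, against 3.79% and 1.76% of all genes that passed it. Their sums were 30.2 and 32.1 FPKM, and the part of vessel cells in the Fzd4 value was not tested. Fzd10, a receptor of the medial and dorsal neural tube, had 0.437 and 0.0704 FPKM from 23 and 5 fragments, giving a log2 change of −1.66 (fragment interval −4.39 to −1.21). Fzd5 had 0.0883 and 0.226 FPKM with overlapping deposited intervals. The low receptors therefore differed in both directions, with Fzd10 lower and Fzd4 higher in the Rcor2cko library.

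The co-receptors were close in the 2 libraries. Lrp6, the main co-receptor of β-catenin signalling, had 12.3 and 12.6 FPKM, giving a log2 change of 0.03 (2121 and 2937 fragments; interval −0.047 to 0.12). Lrp5, which overlaps with it in function, had 5.81 and 4.97 FPKM, giving a log2 change of −0.22 (interval −0.39 to −0.059). The 3 Dishevelled genes, which relay the signal inside the cell, summed to 59.1 and 54.6 FPKM. Dvl1 had 20.4 and 19.4 FPKM, Dvl2 12.7 and 11.7 FPKM, and Dvl3 26.0 and 23.5 FPKM. Their log2 changes were −0.08, −0.12 and −0.14, and only the interval of Dvl3 (−0.25 to −0.041) excluded 0.

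**Figure D2:**
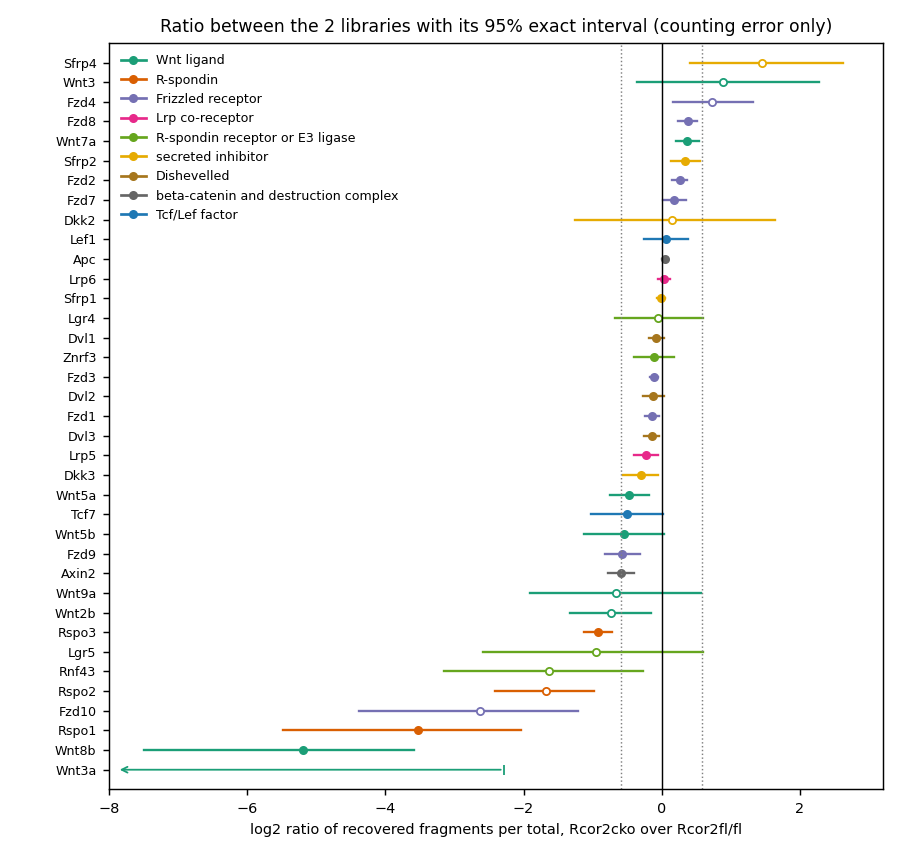
Log2 ratio of recovered fragments per total, Rcor2cko over Rcor2fl/fl, with its 95% exact interval (counting error only), for the 37 genes with at least 10 fragments in 1 library; filled points have at least 1 FPKM, open points less, colours are roles, dotted lines mark 1.5-fold, and the arrow for Wnt3a starts at its upper bound. The R-spondins, Wnt8b, Wnt3a, Fzd10, Rnf43, Wnt2b, Lgr5, Wnt9a and, only just, Axin2 lie to the left of the lower dotted line. The intervals of Lgr5 and Wnt9a include 0. The Frizzleds with filled points lie between −0.57 and 0.38, and Fzd10, an open point, lies at −2.64.

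The secreted inhibitors summed to 58.1 FPKM in the Rcor2fl/fl and 60.0 FPKM in the Rcor2cko library. Sfrp1, a soluble decoy for Wnt that is strong in the cortical ventricular zone, made up 77.6% and 74.9% of the sum, with 45.1 and 44.9 FPKM. Its log2 change of −0.01 had a narrow interval around 0 (3549 and 4771 fragments; −0.072 to 0.054). Sfrp2, the marker of the anti-hem on the lateral side, had 8.34 and 10.6 FPKM, giving a log2 change of 0.34 (284 and 487 fragments; interval 0.13 to 0.56). Dkk3, a distant member of the Dickkopf family, had 4.06 and 3.30 FPKM, giving a log2 change of −0.29 (interval −0.56 to −0.047). Thus the most abundant inhibitor had the same level in both libraries within counting error, and the next 2 differed in opposite directions.

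The anti-hem markers beside Sfrp2 did not move as one group. Of 5 genes, 3 passed the filter, Tgfa was more than 1.5-fold higher (1.01 and 3.52 FPKM), none was lower, none was at 0, and the sums were 12.6 and 13.7 FPKM. Sfrp4 was the low inhibitor with the largest difference, with 0.339 and 0.933 FPKM from 10 and 37 fragments and a log2 change of 1.23 (interval 0.42 to 2.62). The 8 meningeal markers, the covering tissue in which several Wnt modulators are made, were all under 1 FPKM, with sums of 1.99 and 2.56 FPKM and Lum at 0 in the Rcor2fl/fl library, and their part in the Sfrp4 value was not tested. Dkk2 had 0.121 and 0.134 FPKM. Sfrp5, Dkk1 and Notum, a Wnt deacylase, had at most 3 fragments in either library, and Dkk4 had 0 in both.

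β-Catenin, which also holds cadherin junctions together, was by far the most abundant of the 60 genes. Ctnnb1 had 366 FPKM in the Rcor2fl/fl and 363 FPKM in the Rcor2cko library, giving a log2 change of −0.01. Its intervals (287 to 445, combined over transcripts, and 287 to 438 FPKM) overlapped almost fully. Apc, a scaffold of the destruction complex, had 39.7 and 40.9 FPKM, giving a log2 change of 0.04 from 9174 and 12770 fragments (interval 0.0026 to 0.080). Axin1, the constant scaffold, had 14.6 and 12.5 FPKM, giving a log2 change of −0.22 with overlapping deposited intervals. These 3 genes thus showed no difference near 1.5-fold.

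Axin2, the Axin gene that is itself switched on by β-catenin, was the exception within this group, just inside 1.5-fold. On the plus strand at chr11:108781663-108812097 on mm9, it had 6.44 FPKM from 493 fragments and 4.30 FPKM from 444 fragments. Its log2 change was −0.57, and the log2 ratio of fragments was −0.59 (interval −0.78 to −0.40). These 2 values fall on either side of the 1.5-fold limit, and Axin2 and Fzd9 are the genes nearest to it from inside.

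The Tcf/Lef factors, which bind DNA for β-catenin, summed to 13.6 FPKM in the Rcor2fl/fl and 11.3 FPKM in the Rcor2cko library. Tcf7l1, mainly a repressor, had 6.90 and 5.66 FPKM, giving a log2 change of −0.28 with overlapping deposited intervals. Lef1, mainly an activator, had 3.31 and 3.46 FPKM, giving a log2 change of 0.06 (141 and 199 fragments; interval −0.26 to 0.38). Tcf7 had 1.73 and 1.22 FPKM, giving a log2 change of −0.47 with an interval that included 0 (−1.02 to 0.017). For none of these 3 factors did the intervals separate the libraries.

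Tcf7l2, at chr19:55816300-56008144 on mm9, was listed at 1.63 and 1.001 FPKM, giving a log2 change of −0.65. It has 8 transcripts in the Rcor2fl/fl values, and the intervals of the gene (1.06 to 2.19, combined over transcripts, and 0.567 to 1.43 FPKM) overlapped. Taking the highest transcript in place of the sum turned its direction, to a log2 change of 0.60, because this lowers only the library whose values are given per transcript. The value of Tcf7l2 therefore does not stand on the same footing as those of the 3 other genes past 1.5-fold.

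Read by counting error alone, 25 of the 31 genes had recovered fragments. In 6 of them (Wnt7a, Fzd2, Fzd7, Fzd8, Sfrp2 and Apc) the interval lay above 0, and in 11 (Wnt5a, Wnt8b, Rspo1, Rspo3, Fzd1, Fzd3, Fzd9, Lrp5, Dkk3, Dvl3 and Axin2) below 0. Wnt8b and Rspo1 passed the filter only through the Rcor2fl/fl library, which fixed their direction. The intervals rest on the recovered totals. The upper bounds of Fzd1, Fzd3, Lrp5, Dkk3 and Dvl3 were nearer to 0 than the upper-quartile shift of 0.063, so their place below 0 depends on the scaling. Of all 8460 genes with at least 1 FPKM and recovered fragments, 13.7% lay above 0 and 24.0% below 0. At this scaling, many genes of these libraries thus differed by more than counting error. These shares were not taken with other scalings.

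**Figure D3:**
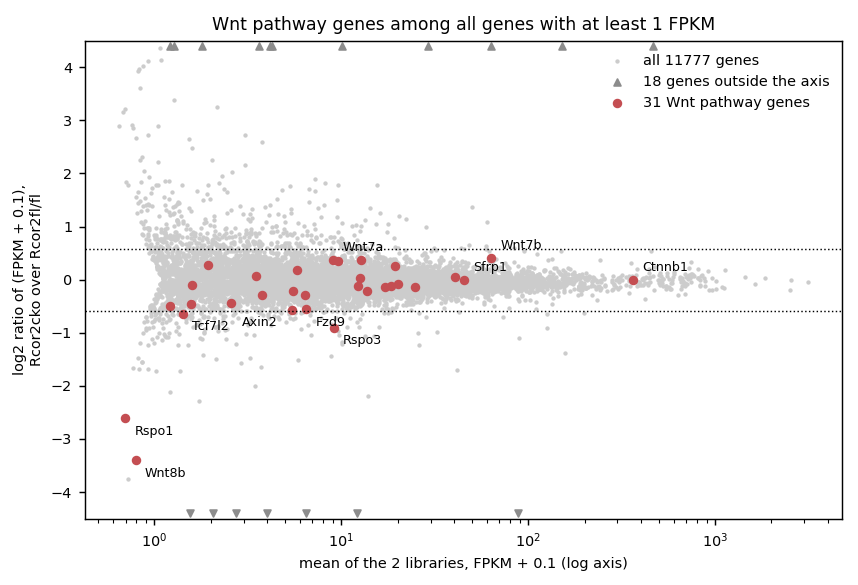
Log2 change (Rcor2cko over Rcor2fl/fl, 0.1 FPKM added) against the mean FPKM + 0.1 of the 2 libraries (log axis), for all 11777 genes with at least 1 FPKM in a library (grey) and the 31 Wnt pathway genes (red); dotted lines mark 1.5-fold and triangles 18 genes beyond the axis. Most red points lie between the dotted lines, Rspo3 lies below them at about 9 FPKM, and Rspo1 and Wnt8b lie far below at about 0.7 FPKM.

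The remaining pathway genes were taken from a list of 65, from ligand secretion (Porcn, Wls) to nuclear cofactors. Of these, 55 had at least 1 FPKM in a library, with a median log2 change of −0.06. Among the 55, 3 were more than 1.5-fold higher, against 3.79% of all genes at that level. Only 1 was more than 1.5-fold lower, against 1.76% of all genes. Ror2, a receptor tyrosine kinase for Wnt5a, had 1.55 and 2.71 FPKM from 110 and 260 fragments, giving a log2 change of 0.77 (interval 0.48 to 1.14). Prickle2, of the planar polarity pathway, had 1.502 and 2.50 FPKM, giving a log2 change of 0.70. Lypd6, a membrane-anchored enhancer of Lrp6 signalling, had 7.66 and 12.04 FPKM, giving a log2 change of 0.65. Against these, Tle4, a Groucho co-repressor that binds Tcf factors, had 22.3 and 14.5 FPKM from 1834 and 1611 fragments, giving a log2 change of −0.62 (interval −0.72 to −0.53). The 3 most abundant genes of the list, the Groucho relative Aes (128 and 121 FPKM), the co-repressor Ctbp1 (96.8 and 92.7 FPKM) and the kinase Csnk1a1 (96.0 and 95.1 FPKM), were close in the 2 libraries.

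Target genes of Wnt signalling were read from a list of 21, of which 11 passed the filter. None was more than 1.5-fold higher and 1 was lower, against 3.79% and 1.76% of all genes that passed it. The lower target was Emx2, a factor of the medial and caudal cortex. Emx2 had 21.5 and 13.9 FPKM from 974 and 850 fragments and a log2 change of −0.62 (interval −0.77 to −0.50). The median log2 change was 0.05, with 6 above 0 and 5 below 0. Id2 (136 and 153 FPKM), Neurog2 (84.3 and 88.0 FPKM) and Mycn (39.4 and 33.3 FPKM) had the highest levels, with log2 changes of 0.17, 0.06 and −0.24. Sp5 and Apcdd1, named here after their values were seen, lay at opposite ends. Sp5, a direct target under 1 FPKM, had 17 fragments in the Rcor2fl/fl and 0 in the Rcor2cko library, with an upper bound of −2.48 for the log2 ratio. Apcdd1, a membrane inhibitor of Wnt, had 23.0 and 32.5 FPKM, giving a log2 change of 0.50 (interval 0.39 to 0.60). The genes of this list therefore gave no common direction. Axin2 and Rnf43, named above as targets of the pathway, were counted as members and are not in this list. Both had their higher value in the Rcor2fl/fl library.

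Ventral telencephalic genes, which mark the progenitors and interneurons of the ganglionic eminences, were mostly higher in the Rcor2cko library. Of 12, 11 passed the filter and 10 were more than 1.5-fold higher, against 3.79% of all genes that passed it. Dlx6, Gsx2, Isl1 and Six3 passed only through the Rcor2cko library, so their Rcor2cko value had to be the higher one. Gsx2, Isl1 and Six3 were at 0 in the Rcor2fl/fl library. The 12 genes summed to 33.8 and 79.1 FPKM. Of the 8 cortical progenitor markers only Emx2 was past 1.5-fold, and none was at 0. The part of ventral cells in the values of Wnt7a, Wnt7b, Fzd8 or any other pathway gene was not tested.

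**Figure D4:**
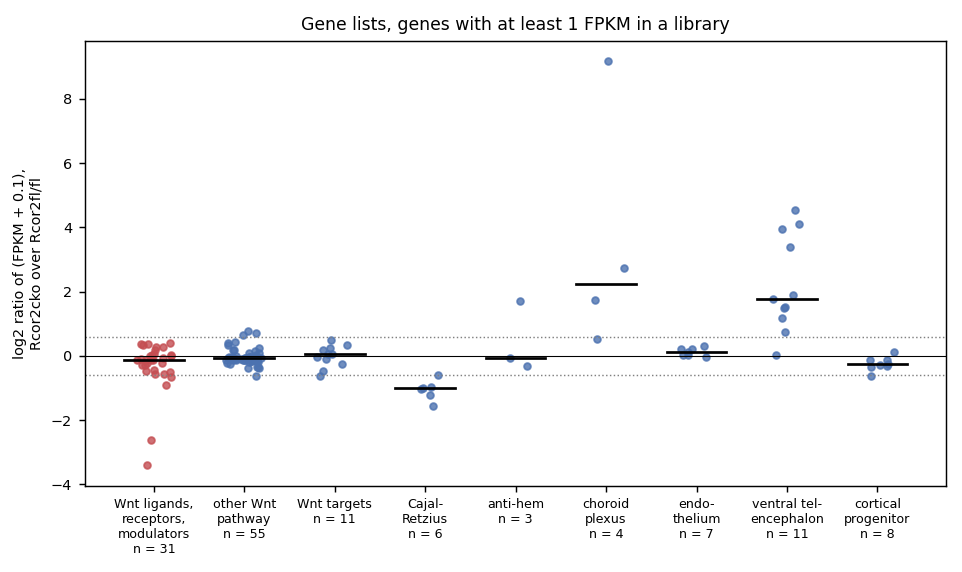
Log2 change (Rcor2cko over Rcor2fl/fl, 0.1 FPKM added) of each gene with at least 1 FPKM in a library, by gene list; points are genes, bars medians and dotted lines 1.5-fold. The 31 Wnt pathway genes centre at −0.12, the 55 other pathway genes at −0.06 and the 11 targets at 0.05. The 6 Cajal-Retzius genes centre at −1.01 and the 11 ventral telencephalic genes at 1.76. Of these, Lhx5 reached 1 FPKM only in the Rcor2fl/fl library, and Dlx6, Gsx2, Isl1 and Six3 only in the Rcor2cko library. Hem and meningeal markers had no gene with 1 FPKM.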

How the data were processed

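RNA was measured in 1 Rcor2fl/fl and 1 Rcor2cko library of the E13.5 VZ–SVZ. Per the submitters' processing notes, reads were handled with TopHat 1.3.3 and Cufflinks 1.2.0 on mm9; the methods name TopHat with default settings and Cuffdiff. The authors deposited FPKM values with 95% bounds, per RefSeq transcript for the control (27641 rows) and per gene for the Rcor2cko library (21896 rows). Whether strand was used in counting is not given in the sources used here.

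From these values, transcript rows were summed per gene, and the half-widths of their intervals were added in quadrature. For genes with several transcripts, the deposited interval named for the Rcor2fl/fl library is this combined one, which treats the transcript estimates as independent. Genes that reached 1 FPKM in either library were compared as log2 of (FPKM + 0.1), with a fold of 1.5 as the limit and no further scaling. With 1 library per genotype no test was run. Depth was recovered from genes of 1 transcript of at least 1000 nt: among values up to 100 fragments, 99.3% of 4019 and 99.4% of 3950 came out within 0.1 of a whole number, with fitted length offsets of 193.9 and 201.0 nt. The steps were tested on simulated data. For a gene at 0 in a library, the bound of the exact interval is given and no fold.

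All members with at least 1 FPKM are named, the others in groups; of the other pathway and target lists, genes past 1.5-fold and the 3 highest are named, and of marker lists up to 3 genes, with the genes at 0. The members and lists were chosen with earlier results of these data known. Positions of 59 of the 60 members came from GENCODE vM1 (NCBIM37, called mm9 by UCSC), counted from 1; promoters are on GRCm38.p6 and were matched by symbol only. The alternatives were other pseudocounts, scalings and filters, a fold above 2, the highest row per gene and non-overlapping intervals. Python 3.11.15, numpy 2.4.6, pandas 2.3.3, scipy 1.17.1 and matplotlib 3.10.9 were used.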

Additional observations from a re-analysis of the deposited data

How the results depend on the processing

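No paired analysis was possible because each genotype has 1 library. Of 14 alternatives, 11 give a median log2 change of the pathway genes, which moved by less than 0.17, and 8 give other values for single genes, under which 27 of 31 genes kept one sign (all but Sfrp1, Ctnnb1, Axin1 and Tcf7l2). Tcf7l2 was reversed, at 0.60, with the highest row per gene. Genes more than 1.5-fold higher, 0 as reported, were 1 with upper-quartile scaling (Fzd4, which then reached 1 FPKM), 4 without a filter and 3 with the highest row per gene (Wnt7b 0.67, Ctnnb1 0.89 and Tcf7l2), a setting that lowers only the library given per transcript. Genes more than 1.5-fold lower, 4 as reported, were 10 without a filter, 2 where both libraries had to reach 1 FPKM, 1 where a library had to reach 5 FPKM and 2 with a fold above 2. Past 1.5-fold among the other pathway genes, 4 as reported, were 2 with a pseudocount of 1, 8 without a filter, 2 with at least 5 FPKM, 0 with a fold above 2, 8 with the highest row and 2 by exact intervals. Among targets, 1 as reported, the counts were 0, 2, 0 and 2 with upper-quartile scaling, no filter, a fold above 2 and the highest row. Filters and folds change these counts by construction; for the other settings the cause was not tested. Median, upper-quartile and total scaling were log2 shifts of 0.035, 0.063 and 0.024. With 0.1 FPKM added, low genes moved by less, such as Wnt8b from −3.404 to −3.394 with median scaling. Under quantile normalization 6 genes were past the lower limit, with Wnt5b (−0.61) and Rspo2, which then reached 1 FPKM, added, and with a pseudocount of 1 Tcf7l2 did not (−0.39). Depth limits the members with few fragments, Wnt8b and Rspo1 in the Rcor2cko library among them.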

Other observations

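Members with several transcripts in the Rcor2fl/fl values differed in how their level was shared, which the Rcor2cko values, given per gene, cannot show. For Wnt7b, 1 of 3 transcripts held 82.9% of the FPKM and the others 16.5% and 0.663%. The 2 transcripts of Ctnnb1 were near even, at 53.5% and 46.5%, whereas 1 transcript held 79.0% for Axin1 and 86.4% for Tcf7l1. Tcf7l2, known for its many splice forms, was the most evenly spread, with 38.4%, 23.6%, 21.6% and 16.4% for its 4 highest transcripts and 3 of 8 listed at 0. How reads are shared between transcripts that overlap is an estimate, and these values have no replicate.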
